A study of Mus musculus with 17 samples.

Results

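The baseline transcriptome of the control CD8 T cells was described from the 5 libraries labelled Rosa KO, out of 17 libraries in the series. They were chosen by their group label alone, and no knockout library enters any value given here. The series measured RNA from mouse spleen CD8 T cells gated as CD8+ and Thy1.1+, in a control group and in 3 groups named for a targeted regulator of chromatin or DNA methylation, and its title places the work in clonal hematopoiesis, stemness and immunotherapy. Rosa refers to the Rosa26 locus, a site that is commonly edited as a control because its disruption is tolerated. Thy1.1 is an allele of the T cell surface protein Thy1 that marks transferred cells in a host with the other allele. The labels used here give no age, sex, host, antigen receptor, infection, treatment or day of collection for these libraries, and do not say whether each came from a separate animal. P-values here weigh differences against library-to-library spread, and part of that spread may come from technique. By the numbers in the labels, Rosa KO 1 (library TGK63) belongs to an earlier run of numbers than Rosa KO 2 to 5 (libraries TGK124, TGK125, TGK126 and TGK127). Rosa KO 1 is given apart from the 4 others throughout, and what separates it, run or sample, cannot be told apart from 1 library.

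A naive CD8 T cell carries homing receptors for lymph nodes and the transcription factors Tcf7 and Lef1, and responds to antigen by dividing and becoming an effector cell. Effector cells load granules with perforin and granzymes, secrete interferon gamma and chemokines, and at the end of this path express Klrg1 and the transcription factor Zeb2. Cells under lasting stimulation can instead take on an exhausted state, with the factor Tox and inhibitory receptors such as PD-1.

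The 5 libraries held 19384141, 12831920, 27092024, 40701203 and 6625833 counts, in the order Rosa KO 1 to 5. Between 13628 and 14559 of the 24594 listed genes had at least 1 count, and when each library was scaled down to the shallowest total the expected number lay between 13150 and 13730. Levels are CPM, the usual per-library scaling of counts to a common total, with totals adjusted by TMM, and comparisons of level between genes are made per kilobase of exon, as CPM per kb. At least 1 CPM in all 5 libraries was reached by 10126 genes, at least 100 CPM by 1676, and 7789 genes had no count in any of the 5. The counts of each pair of libraries differed by more than sampling noise (chi-square per degree of freedom 35.0 to 194), so none was taken as the same library sequenced again. Separate preparations of 1 sample can also differ by more than this noise, so the values do not show that the libraries are independent. Across genes, Spearman's correlation of log2 CPM was 0.925 to 0.947 for pairs among Rosa KO 2 to 5 and 0.902 to 0.921 for pairs with Rosa KO 1, a description in which all genes of a pair share 2 libraries.

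The transcripts of the gate were abundant in all 5 libraries. Cd8a (mm10 chromosome 6, 71373427 to 71379171), which encodes the CD8 alpha chain, had 963 CPM in Rosa KO 1 and 740, 714, 664 and 642 CPM in Rosa KO 2 to 5. Cd8b1 (chromosome 6, 71322788 to 71337492), its partner chain, had 864 CPM in Rosa KO 1 and 949, 862, 794 and 763 CPM in the others. Cd4, the defining coreceptor of helper T cells, had 28.0 CPM in Rosa KO 1 and 5.03, 3.29, 3.65 and 2.88 CPM in Rosa KO 2 to 5. Cd8b1 overlapped between Rosa KO 1 and the 4 others, while Cd8a and Cd4 lay above their range in Rosa KO 1. Of genes with a mean of 10 CPM or more in the 4 others, 26.7% lay above their range in Rosa KO 1. A further 29.5% lay below it, and any lack of overlap given here is to be read against these shares. Thy1, the gene of the gating marker, had 479 CPM in Rosa KO 1 and 499 to 645 CPM in the others. All 19 listed genes of the T cell lineage and antigen receptor signalling reached 1 CPM in all 5 libraries, and their summed level was 14390 CPM in Rosa KO 1 and 11262 to 12413 CPM in Rosa KO 2 to 5. Antigen receptor chain genes were not analysed here. The Rosa26 transcript, Gt(ROSA)26Sor, had 1.55 CPM in Rosa KO 1 and 5.82, 10.7, 3.13 and 5.15 CPM in Rosa KO 2 to 5, and since a small edit can leave a transcript's level unchanged these counts do not check the label. Transcripts of the Y chromosome genes Ddx3y, Eif2s3y, Kdm5d and Uty were present in all 5 libraries at 69.4 CPM or more, and Xist, expressed from the inactive X of females, was at 0 in Rosa KO 1, 3 and 4 and at 0.157 and 0.757 CPM in Rosa KO 2 and 5.

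Cytotoxic effector transcripts stood among the most abundant per length. In Rosa KO 2 to 5 the leading gene was B2m, the light chain of MHC class I, with 6156 ± 1469 CPM per kb (SD, n = 4). It was followed by Ccl5, a chemokine of cytotoxic lymphocytes, at 3942 ± 1318 CPM per kb, and by the actin-binding gene Tmsb4x and the ribosomal gene Rplp1. Gzma was at rank 5 with 2097 ± 374 CPM per kb, S100a4, a calcium-binding protein of antigen-experienced T cells, was at rank 7 with 2001 ± 358, and Nkg7, a granule membrane protein, was at rank 8 with 1985 ± 249. Gzmb was at rank 16 with 1163 ± 189 CPM per kb. The other genes among the first 15 were Actb, Eef1a1, the nuclear RNA Malat1 and the ribosomal genes Rps3a1, Rpl32, Rpl36, Rps15 and Rps4x.

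Of the 100 highest genes per length, 44 encoded ribosomal proteins and 10 belonged to the effector list of 40 genes. None belonged to the lists for naive and memory cells, exhaustion, B cells or transcription factors. These lists were chosen with earlier results of these data known. The 100 highest genes of each library had 86 in common among Rosa KO 2 to 5 and 76 in common among all 5. The lone library gave nearly the same order at the top, with ranks of 1 for B2m, 2 for Ccl5, 5 for Gzma, 7 for Nkg7, 10 for S100a4 and 16 for Gzmb. These ranks depend on the length chosen. With the median length of a gene's transcripts in place of its total exonic length, a setting added after the data had been seen, Ccl5 stayed at rank 2 while B2m moved to 4, Gzma to 20 and Gzmb to 103.

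**Figure D1:**
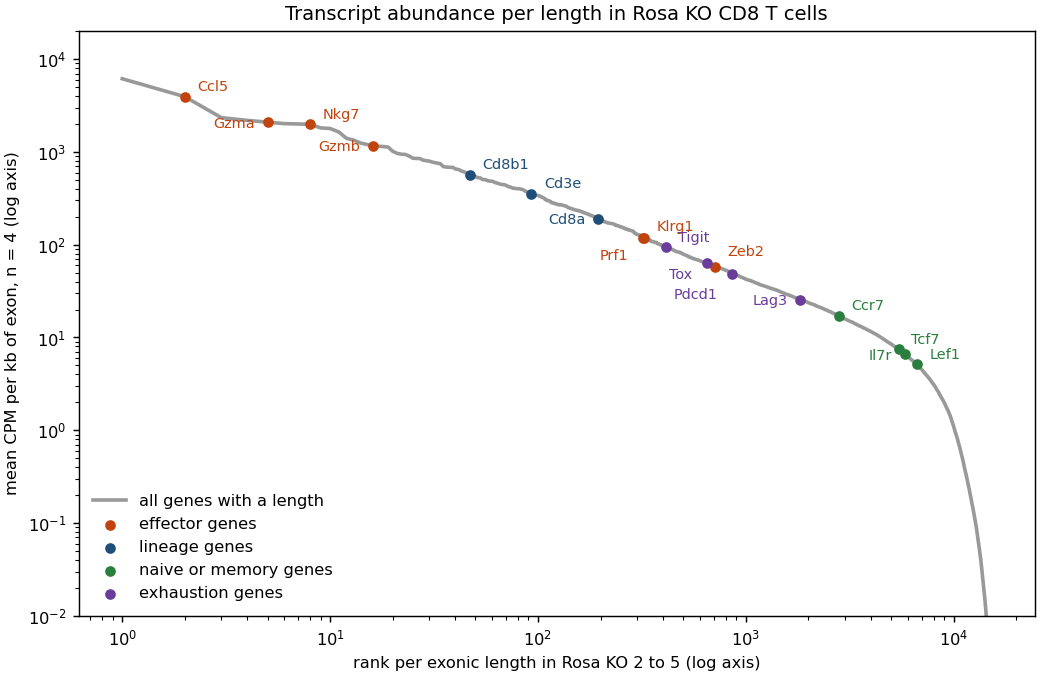
Mean level per exonic length in Rosa KO 2 to 5 (CPM per kb, n = 4, log axis) against the rank of each gene (log axis), with named genes marked by group. Ccl5, Gzma, Nkg7 and Gzmb lie within the first 16 ranks, the CD8 chains at ranks 47 and 195, and Tcf7, Il7r and Lef1 beyond rank 5000.

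The 5 marker genes spread over a wide range of ranks. Cd8b1 was at rank 47 per length with 568 CPM per kb and Cd8a at rank 195 with 190 CPM per kb in Rosa KO 2 to 5. Klrg1, a receptor of short-lived effector cells, was at rank 324 with 118 CPM per kb, and Zeb2 was at rank 710 with 58.1 CPM per kb. By the median transcript length these ranks became 248 for Cd8b1, 689 for Cd8a, 1488 for Klrg1 and 207 for Zeb2, whose annotated exons add up to 19942 bases. In Rosa KO 1 the ranks by exonic length were 47 for Cd8b1, 137 for Cd8a, 579 for Klrg1 and 1211 for Zeb2. Ranked by CPM alone, a scale that favours long transcripts, Gzma held ranks 17, 18, 15, 18 and 20 in Rosa KO 1 to 5, and Zeb2 held ranks 175, 80, 78, 76 and 42.

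Gzma, Nkg7 and Gzmb were the leading granule genes by CPM and per length, and Gzma and Gzmb encode granzymes that cleave substrates in target cells. Gzma (chromosome 13, 113093824 to 113100981) had 2588 CPM in Rosa KO 1 and 2132, 2621, 1741 and 1944 CPM in Rosa KO 2 to 5. Gzmb (chromosome 14, 56258836 to 56262334) had 1711 CPM in Rosa KO 1 and 1547, 2073, 1483 and 1580 CPM in the others. For both genes Rosa KO 1 lay within the range of the 4 others, and Rosa KO 3 was the highest of those 4. Prf1, which encodes the pore-forming protein perforin, had 425 CPM in Rosa KO 1 and 299, 382, 283 and 262 CPM in the others. Gzmk, a granzyme of memory and early exhausted cells, had 667 CPM in Rosa KO 1, above the 325 to 440 CPM of Rosa KO 2 to 5. In level per length over Rosa KO 2 to 5 the order was Gzma, Gzmb, Gzmk (283 CPM per kb) and Prf1 (119 CPM per kb). Gzmm was low, between 2.57 and 8.93 CPM in the 5 libraries.

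The other members of the granzyme gene cluster were nearly silent. Gzmd, Gzme, Gzmg and Gzmn had no count in any library, Gzmc reached at most 0.375 CPM and Gzmf at most 0.454 CPM. A count of 0 allows up to 3 counts, which is 0.0737 CPM in the deepest library and 0.453 CPM in the shallowest, for counting error only. Genes of this cluster are close paralogs and the way shared reads were counted is not given, so the values of Gzmb and its neighbours carry that uncertainty. Gzma lies within the span of Cdc20b, which had a mean of 17.3 CPM in Rosa KO 2 to 5. In all, 19 of the 25 granule genes reached 1 CPM in all 5 libraries, including the secretion genes Rab27a (75.4 to 148 CPM), Unc13d (32.3 to 55.1) and Stx11 (44.4 to 64.2).

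The promoters of Gzma and Gzmb, the highest granzyme genes, are shown because both hold a short motif. The nearly silent Gzmc to Gzmg, cluster neighbours of Gzmb on chromosome 14, hold it too. The sequences are the 250 bases before the RefSeq start site (GRCm38.p6, the assembly of mm10), written on the strand of the gene, with capitals for the RUNX motif TGTGGTT or its reverse complement AACCACA. The Gzma sequence lies at chr13:113100982-113101231 on the minus strand and the Gzmb sequence at chr14:56262335-56262584 on the minus strand.
Gzma: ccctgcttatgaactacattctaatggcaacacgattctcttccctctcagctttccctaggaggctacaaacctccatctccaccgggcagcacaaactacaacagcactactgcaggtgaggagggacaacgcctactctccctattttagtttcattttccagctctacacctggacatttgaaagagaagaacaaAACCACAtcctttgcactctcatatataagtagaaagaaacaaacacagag
Gzmb: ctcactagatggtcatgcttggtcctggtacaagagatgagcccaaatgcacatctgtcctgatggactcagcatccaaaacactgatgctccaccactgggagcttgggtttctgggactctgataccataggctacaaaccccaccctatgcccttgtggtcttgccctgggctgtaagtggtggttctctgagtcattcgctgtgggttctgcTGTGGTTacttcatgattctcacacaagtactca
The motif, searched on both strands, was found in 8 of 23 granule promoters (34.8%), those of Gzma, Gzmb, Gzmc, Gzmd, Gzme, Gzmf, Gzmg and Rab27a, and in 6 of 32 effector promoters (18.8%). It was found in 4.46% of all 27025 promoters and in 3.13% of those of genes at 10 CPM or more. The promoters of Gzmb to Gzmg belong to paralogs that share sequence and are not independent matches. Gzmc to Gzmg held the motif at no more than 0.454 CPM, so in these libraries the motif stood before both the highest and the lowest granzymes. The promoter of Gzmn, also without a count and on chromosome 14, held no match. It was 1 of 10 motifs searched, chosen after several had been looked at, and a match describes letters and no binding site.

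Surface and secreted effector genes were present throughout. All 40 effector genes reached 1 CPM in all 5 libraries, with a summed level of 34821 CPM in Rosa KO 1 and 28488 to 32237 CPM in Rosa KO 2 to 5, which is 3.36% and 3.00 to 3.20% of the counts. Klrg1 (chromosome 6, 122270596 to 122282833) had 98.5 CPM in Rosa KO 1 and 193, 159, 165 and 148 CPM in Rosa KO 2 to 5. Cx3cr1, a chemokine receptor of circulating effector cells, had 504 CPM in Rosa KO 1 and 327, 210, 344 and 315 CPM in the others. S1pr5, a sphingosine phosphate receptor of effector cells leaving tissue, had 190 CPM in Rosa KO 1 and 218, 333, 315 and 245 CPM in the others. Klrg1 and S1pr5 were thus lowest and Cx3cr1 highest in Rosa KO 1, each outside the range of the other 4. The edgeR adjusted p of these differences was 0.151 for Klrg1, 0.321 for S1pr5 and 0.0829 for Cx3cr1, so none of them passed, though Cx3cr1 did without the filter on low counts (0.0177).

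Ccl5 had 4155 CPM in Rosa KO 1 and 5067, 2994, 2440 and 4636 CPM in Rosa KO 2 to 5. Its highest and lowest values among the last 4 differed 2.08-fold, against a median ratio of 1.34 for the effector list and 1.70 for the 8676 genes with a mean of 10 CPM or more. Ifng, the gene of interferon gamma, was far steadier among the 4, with 421, 404, 415 and 399 CPM, and it had 81.7 CPM in Rosa KO 1. The cytokine genes Il2, Il21 and Csf2 stayed at 1.73 CPM or less in every library, and Tnf ranged from 9.53 to 23.7 CPM.

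In Rosa KO 2 to 5 the effector cell factors Zeb2 and Id2 were higher per length than the naive cell factors Tcf7 and Lef1. In Rosa KO 1 Tcf7 (38.7 CPM per kb) and Zeb2 (37.9) stood at nearly the same level. Zeb2 (chromosome 2, 44983512 to 45117442), a repressor that drives terminal effector differentiation, had 756 CPM in Rosa KO 1 and 1127, 1099, 1036 and 1369 CPM in Rosa KO 2 to 5. It was lowest in Rosa KO 1, without overlap, and did not pass the edgeR test (log2 fold change −0.62 ± 0.20, SE, adjusted p = 0.108), though it did by DESeq2 (adjusted p = 0.0368). Its antisense gene Zeb2os had a mean of 7.3 CPM in Rosa KO 2 to 5, and the counts may not separate the pair. Id2, which supports effector cells, had 515 CPM in Rosa KO 1 and 612 to 835 CPM in the others. Tbx21, the gene of T-bet, had 134.1 CPM in Rosa KO 1 and 140, 60.8, 87.9 and 76.9 CPM in the others. Prdm1, the gene of Blimp-1, had 205 CPM in Rosa KO 1 and 77.6 to 125.9 CPM in the others. Per length over Rosa KO 2 to 5, Id2 (277 CPM per kb) stood above Bhlhe40 (144). Below these came, in order, the exhaustion factor Tox (63.2), Zeb2 (58.1), Tbx21 (36.7), Eomes (21.6) and Prdm1 (19.97). Tox and Zeb2 overlapped, with SDs of 6.21 and 7.31 CPM per kb (n = 4). In Rosa KO 1 Tox had 149.6 CPM per kb and Zeb2 37.9. Eomes and Prdm1 overlapped as well, with SDs of 3.40 and 4.06 CPM per kb (n = 4). By median transcript length Zeb2 came first of these (rank 207), before Id2 (262), Bhlhe40 (328) and Tox (760). Tbx21 (4151) and Prdm1 (4349) stood before Eomes (4595).

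Of the factors of naive and stem-like cells, Tcf7, Lef1 and Id3 were low, while Klf2 (95.4 CPM per kb) and Foxp1 (22.5 CPM per kb) stood higher per length in Rosa KO 2 to 5. Tcf7 (chromosome 11, 52246527 to 52283383), the gene of TCF-1, had 101 CPM in Rosa KO 1 and 17.2, 14.0, 22.7 and 24.7 CPM in Rosa KO 2 to 5. Lef1, its relative, had 73.1 CPM in Rosa KO 1 and 31.4, 34.5, 49.6 and 64.8 CPM in the others. Both were highest in Rosa KO 1 without overlap, but only Tcf7 passed the edgeR test (log2 fold change 2.37 ± 0.42, SE, adjusted p = 0.00225, against 0.484 for Lef1). Per length they stood at 7.49 CPM per kb (rank 5433) and 5.13 CPM per kb (rank 6631) in Rosa KO 2 to 5, and in Rosa KO 1 Tcf7 stood at 38.7 CPM per kb (rank 1176). Tcf7 overlaps the end of Skp1, and the counts may not separate their reads. Bach2, a repressor that restrains effector genes, had 62.4 CPM in Rosa KO 1 and 165, 53.7, 95.0 and 136.2 CPM in the others, a 3.07-fold range. Id3 stayed between 3.53 and 18.6 CPM in the 5 libraries.

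Homing and survival receptors of naive and memory cells were unevenly expressed. Ccr7, the chemokine receptor that guides cells into lymph nodes, had 5.57 CPM in Rosa KO 1 and 24.1, 36.9, 38.4 and 36.2 CPM in Rosa KO 2 to 5. It was lower in Rosa KO 1 without overlap and passed the edgeR test (log2 fold change −2.60 ± 0.63, SE, adjusted p = 0.0235). Mature B cells also express Ccr7, and the 15 B cell genes summed to 623 CPM in Rosa KO 1 and 3057 to 3322 CPM in the others. Their part in the level of Ccr7 was not tested.

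Il7r, the interleukin 7 receptor of naive and memory precursor cells, had 46.6 CPM in Rosa KO 1 and 15.2, 64.1, 13.9 and 29.8 CPM in Rosa KO 2 to 5, a 4.61-fold range that included Rosa KO 1. Per length over Rosa KO 2 to 5, Klf2 (95.4 CPM per kb) and its target S1pr1 (86.9), which together keep T cells in circulation, and the costimulatory receptor Cd27 (133) stood far above Il7r (6.59). Dapl1 and Igfbp4, 2 genes of naive CD8 T cells, reached at most 0.0234 and 2.03 CPM in any library. Of the 28 genes in the naive and memory list, 26 reached 1 CPM in all 5 libraries. The median level per length of the list over Rosa KO 2 to 5 was 9.80 CPM per kb, against 144 for the effector list and 29.2 for the exhaustion list. The lists were chosen with earlier results of these data known, so the order of these medians describes the lists and does not test a state. The medians were taken by exonic length alone.

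**Figure D2:**
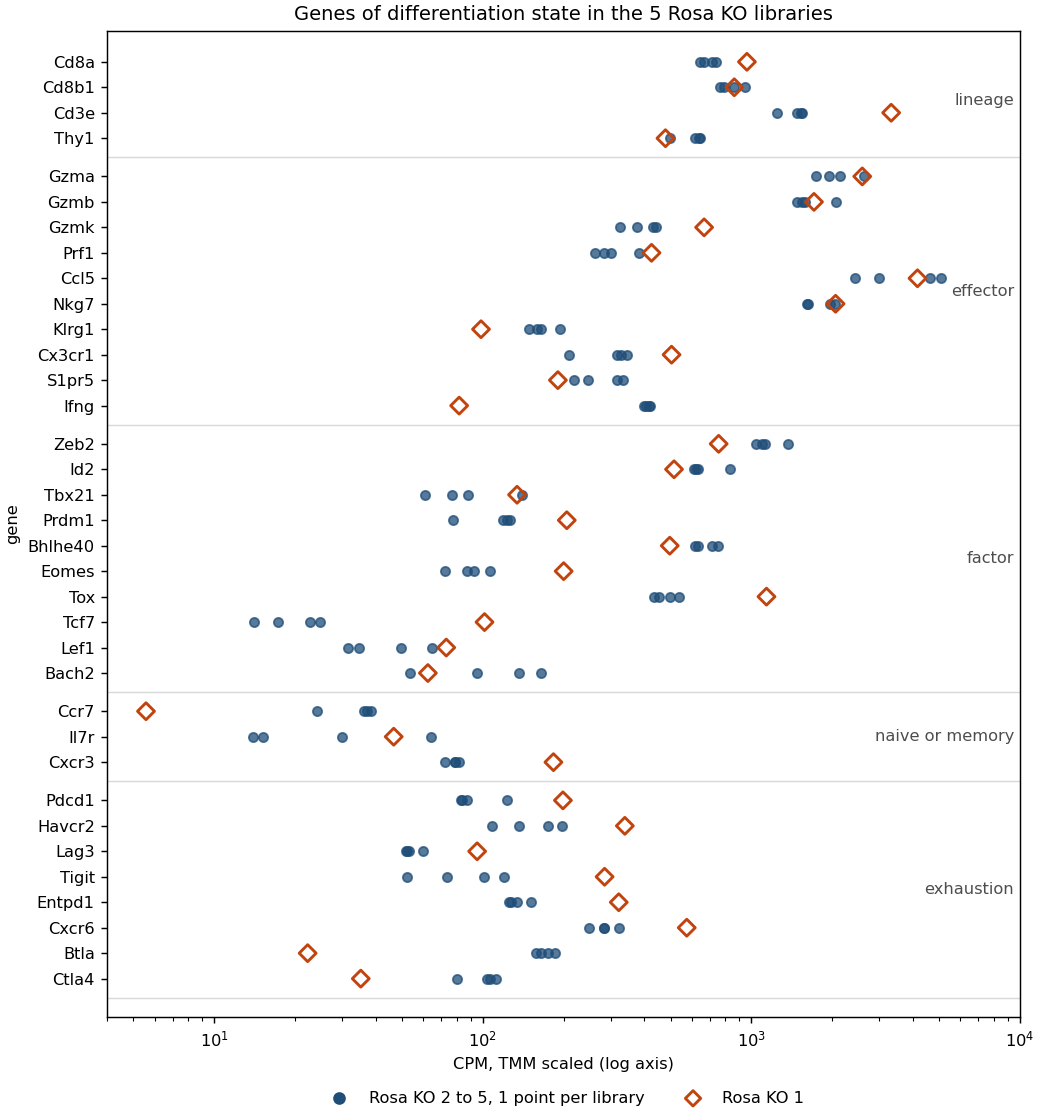
CPM (log axis) of 35 genes in each library, grouped as lineage, effector, transcription factor, naive or memory, and exhaustion genes. Filled circles are Rosa KO 2 to 5 and open diamonds Rosa KO 1, which lies apart from the circles for Tcf7 (101 CPM against 14.0 to 24.7), Tox, Tigit, Ccr7, Btla and Ifng and among them for Gzma, Gzmb and Cd8b1.

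Exhaustion genes were present, with a median level per length between those of the naive and memory list and the effector list. Tox, the factor that maintains exhausted cells, had 1138 CPM in Rosa KO 1 and 453, 433, 499 and 538 CPM in Rosa KO 2 to 5. Pdcd1, the gene of PD-1, had 199 CPM in Rosa KO 1 and 83.01, 123, 83.7 and 87.2 CPM in the others. Havcr2, the gene of TIM-3, had 338 CPM in Rosa KO 1 and 175, 196, 136.2 and 108 CPM in the others. All 3 were higher in Rosa KO 1 with no overlap, and so was Lag3, with 95.3 CPM against 51.6 to 59.7 CPM. Per length over Rosa KO 2 to 5 the inhibitory receptor genes ranked Tigit (94.3 CPM per kb), Havcr2 (56.6), Btla (50.3), Pdcd1 (48.9), Ctla4 (43.2) and Lag3 (25.7). The differences among Havcr2, Btla and Pdcd1 were smaller than the spread of Havcr2 (SD 14.4 CPM per kb, n = 4). By median transcript length the order turned, with Ctla4 at rank 1173, Btla at 1656, Tigit at 1875, Havcr2 at 2911, Pdcd1 at 3342 and Lag3 at 3601. All 27 exhaustion genes analysed reached 1 CPM in all 5 libraries.

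Cell cycle transcripts were detected in all 5 libraries. Mki67, the gene of the proliferation marker Ki-67, had 405 CPM in Rosa KO 1 and 593, 722, 573 and 719 CPM in Rosa KO 2 to 5. Pcna, the sliding clamp of DNA replication, had 245 CPM in Rosa KO 1 and 324, 427, 353 and 330 CPM in the others. Both were lowest in Rosa KO 1 and neither passed the edgeR test (adjusted p = 0.0896 and 0.237), though Mki67 did by DESeq2 (0.0221) and without the filter on low counts (0.0433). All 33 proliferation genes reached 1 CPM in every library, with a summed level of 4282 CPM in Rosa KO 1 and 3551 to 3941 CPM in the others. Of the 32 with a mean of 10 CPM or more in Rosa KO 2 to 5, 18 lay above the range of those libraries in Rosa KO 1 and 5 below it, where 26.7% and 29.5% of all genes at that level did, and the median log2 fold change of the list was 0.35. Of the 33, only the tubulin gene Tubb5 passed the edgeR test (1.66% of all genes tested were higher), with 769 CPM in Rosa KO 1 and 453, 414, 457 and 446 CPM in the others (log2 fold change 0.80, adjusted p = 0.0162). Most single members were low, with a median level per length of 9.83 CPM per kb over Rosa KO 2 to 5. In bulk RNA a smaller share of cells with a transcript and less transcript per cell cannot be told apart, which holds for every level given here.

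Transcripts of other cell types were present beside those of T cells. The 15 B cell genes analysed all reached 1 CPM in all 5 libraries, and their sum took 0.0600% of the counts in Rosa KO 1 and 0.305 to 0.349% in Rosa KO 2 to 5. Cd79a, a signalling chain of the B cell receptor, had 26.2 CPM in Rosa KO 1 and 281, 211, 309 and 291 CPM in the others. H2-Aa, an MHC class II chain of B cells and other antigen-presenting cells, had 318 CPM in Rosa KO 1 and 1675, 1638, 1613 and 1474 CPM in the others. For both genes Rosa KO 1 lay far below the other 4. Markers of red cells and platelets went the other way, with a summed level of 747 CPM in Rosa KO 1 and 87.0 to 127.3 CPM in the others. Hba-a1, an alpha globin with a near-identical copy, had 295 CPM in Rosa KO 1 and 21.5 to 45.5 CPM in the others, and the platelet chemokine gene Ppbp had 156 CPM against 9.87 to 16.3 CPM.

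The 16 myeloid genes summed to 1276 CPM in Rosa KO 1 and 458 to 812 CPM in the others, led by the lysozyme gene Lyz2 with 760 CPM against 453, 507, 373 and 250 CPM. Plasma cell genes summed to 262 CPM in Rosa KO 1 and 425 to 532 CPM in the others, neutrophil genes to 193 CPM and 81.95 to 181 CPM, and genes of CD4 and regulatory T cells to 123.6 CPM and 71.3 to 120.0 CPM. NK cell genes summed to 657 CPM in Rosa KO 1 and 595 to 688 CPM in the others, among them Klrb1c (108 CPM and 233 to 266 CPM) and Klra9 (111 CPM and 118 to 148 CPM), while Ncr1, an NK cell receptor gene that conventional T cells lack, stayed at 2.92 CPM or less. Endothelial and stromal genes summed to 28.4 CPM in Rosa KO 1 and 52.5 to 78.8 CPM in the others, with the fibroblast collagen genes Col1a1 and Col3a1 at or under 0.107 CPM, and Sox13, a factor of gamma delta T cells, at or under 0.0234 CPM. Which cells carried these transcripts was not measured.

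**Figure D3:**
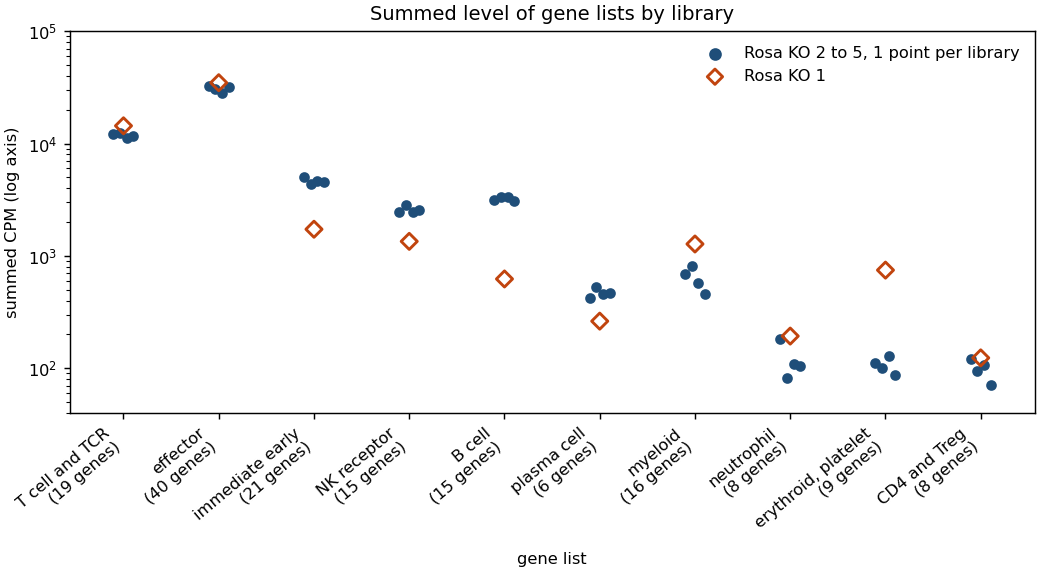
Summed CPM (log axis) of 10 gene lists in each library, with filled circles for Rosa KO 2 to 5 and open diamonds for Rosa KO 1. The B cell, immediate early and NK receptor sums are lower in Rosa KO 1 (623, 1727 and 1347 CPM), the myeloid and the erythroid and platelet sums are higher (1276 and 747 CPM), and the effector and T cell sums lie close together in all 5.

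Among Rosa KO 2 to 5 the effector list had a smaller median spread than all genes did. Over the 8676 genes with a mean of 10 CPM or more, the highest library exceeded the lowest by a median of 1.70-fold. The ratio was under 1.5 for 2975 of these genes, over 2 for 2950 and over 4 for 530. Cd44, an adhesion receptor of antigen-experienced T cells, had 260, 273, 263 and 272 CPM and, like Ifng, a ratio of 1.05. The median ratio was 1.34 for effector genes, 1.44 for granule genes and for transcription factors, 1.55 for naive and memory genes, 1.61 for exhaustion genes and 1.75 for immediate early genes. Effector genes also had the highest median level per length of the effector, exhaustion, and naive and memory lists, and the part of expression level in these ratios was not tested.

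Of the named genes with the widest spread among the 4, Bhlha15, a factor of secretory cells, had 40.8 CPM in Rosa KO 2 and at most 0.374 CPM in the other 3. Ptpdc1 had 43.0 CPM in Rosa KO 3 and at most 3.13 CPM elsewhere among the 4, and Pcgf2, a Polycomb subunit, had 54.9 CPM in Rosa KO 2 and at most 6.96 CPM in the other 3. Hbegf, a growth factor gene, had 37.0 CPM in Rosa KO 3, 9.83 in Rosa KO 2, 0.0935 in Rosa KO 4 and no count in Rosa KO 5. A single library stood high for Bhlha15, Ptpdc1 and Pcgf2, and 2 libraries for Hbegf. Genes were ranked for spread at a mean of 10 CPM or more over Rosa KO 2 to 5. Bhlha15, Ptpdc1, Pcgf2 and Hbegf reached that mean only through the libraries where they stood high. Ccr3, Slc7a7, Uggt2, Cmtr2, Zbtb39 and Aar2 had highest to lowest ratios from 24.3 to 139.

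Rosa KO 1 was then compared with Rosa KO 2 to 5 to ask how far the lone library shares the state of the other 4. By edgeR's quasi-likelihood test, in which the lone library is assumed to vary like the others, 237 of 14254 genes (1.66%) were higher and 243 (1.70%) lower, 3.37% in all. Without a model, 737 genes (5.17%) in Rosa KO 1 lay at least 2-fold above the highest of the other 4 and 816 (5.72%) at least 2-fold below the lowest. The median log2 fold change over all genes tested was −0.13, and medians for lists are to be read against it. For every list, the members called higher or lower are to be read against the shares of all genes called in each direction, given above. DESeq2 called 379 genes higher and 687 lower. Called genes also differed in length and base composition. The median length of the longest transcript was 4846 bases for higher genes, 3114 for lower genes and 3311 for all tested, and the median GC content was 51.0, 46.3 and 49.6%, with 235 of 237, 231 of 243 and 13376 of 14254 genes matched to a transcript. The part of transcript length, GC content, run and sample in this comparison was not tested.

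**Figure D4:**
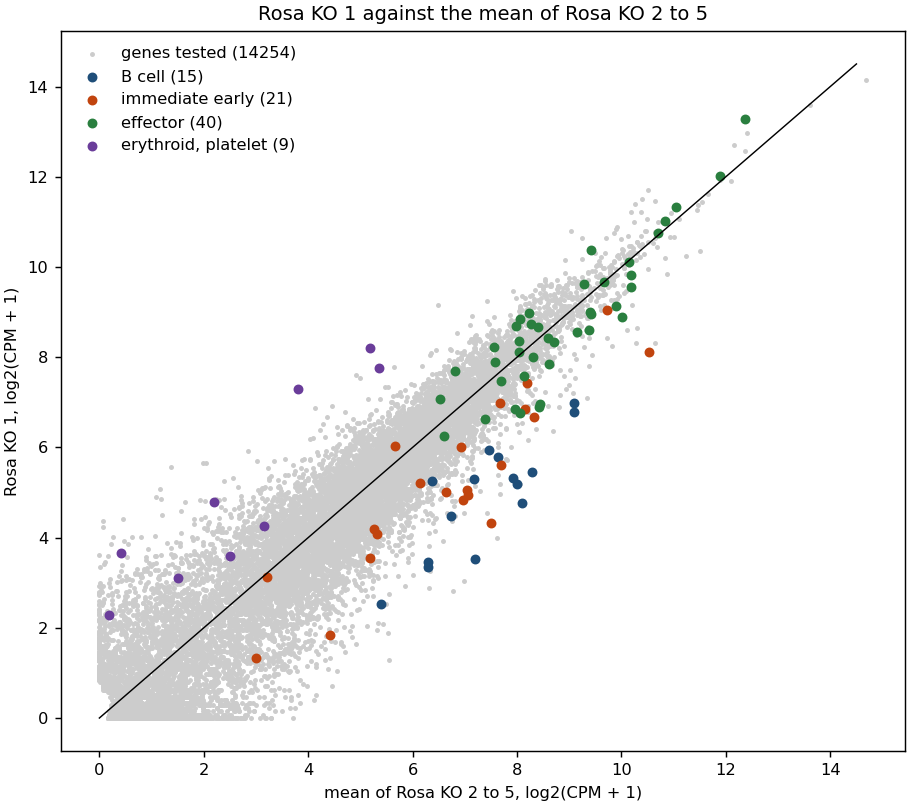
Rosa KO 1 against the mean of Rosa KO 2 to 5, each as log2(CPM + 1), for the 14254 genes tested, with the line of equal level. Effector genes (40) scatter to both sides of the line, B cell genes (15) and most immediate early genes (21) lie below it, and erythroid and platelet genes (9) lie above it.

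B cell genes were lower in Rosa KO 1, with 14 of 15 passing the edgeR test, none higher, and a median log2 fold change of −2.63. The exception was Spib (−1.15, adjusted p = 0.1264). Genes of red cells and platelets had 3 of 9 members higher, Hba-a1, Hbb-bt and Ppbp, none lower, and a median of 2.92. Myeloid genes had 3 of 16 members higher, Lyz2, Csf1r and Vcam1, none lower, and a median of 0.96. Lyz2 and Csf1r lost their call without Rosa KO 4 or Rosa KO 5, Csf1r also without Rosa KO 2, and Vcam1 without Rosa KO 5 (edgeR adjusted p from 0.0516 to 0.107). The genes furthest apart were outside the T cell lists as well. The blood coagulation gene F5 had 46.2 CPM in Rosa KO 1 and 0.296 to 3.03 CPM in the others (log2 fold change 4.92 ± 0.84, SE, adjusted p = 0.00155). Thbs1, a platelet and matrix protein, Fn1, the gene of fibronectin, the lipoprotein receptor gene Lrp1 and the chemokine gene Cxcl9 were also among the 10 highest, as were Zfp366 and Map2. Glp1r, the receptor of glucagon-like peptide, had 194 CPM against 22.9, 46.9, 19.8 and 27.7 CPM. At the other end, Ly6d, a marker of B cells, had 6.05 CPM against 78.5 to 130 CPM, and Ankrd16 had 1.45 CPM against 35.7 to 51.2 CPM. Zfp446, Lipc, Pxdc1, Eaf2, Miat, Fam129c, Lyl1 and Bend5 completed the 10 lowest. Map2 lost its call without Rosa KO 5, Miat and Fam129c without Rosa KO 4, and Bend5 without any 1 of Rosa KO 2, 4 and 5 (edgeR adjusted p from 0.0519 to 0.0852).

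Immediate early genes, which are transcribed within minutes of a stimulus, were lower in Rosa KO 1. Fos (chromosome 12, 85473890 to 85477274), a subunit of the AP-1 factor, had 19.1 CPM in Rosa KO 1 and 184, 164, 212 and 164 CPM in Rosa KO 2 to 5. Tnfaip3, an inhibitor of NF-kB signalling, had 275 CPM in Rosa KO 1 and 1647, 1301, 1472 and 1494 CPM in the others. Cd69, an early activation receptor, had 47.9 CPM in Rosa KO 1 and 189, 226, 216 and 196 CPM in the others. None of the 3 overlapped, with log2 fold changes of −3.25 ± 0.33, −2.42 ± 0.22 and −2.11 ± 0.28 (SE, edgeR adjusted p = 6.58e-06, 2.88e-06 and 0.000125). Of the 21 genes in the list 9 were lower and none higher, against 1.70% lower over all genes, with a median log2 fold change of −1.67. The other 6 were the AP-1 subunits Fosb and Junb, the phosphatase gene Dusp1, the RNA-decay factor Zfp36, the NF-kB inhibitor Nfkbia and the stress gene Ppp1r15a. Of the 19 members with a mean of 10 CPM or more in Rosa KO 2 to 5, 18 lay below the range of those 4 libraries in Rosa KO 1, against 29.5% of all genes at that level, and Myc lay within it. B cells express these genes too, and the part of the B cell transcripts in this difference was not tested. Ifng and the chemokine genes Ccl3 and Ccl4, which are induced on stimulation of effector T cells, were also lower (log2 fold change −2.33, −1.52 and −1.31, edgeR adjusted p = 7.25e-06, 0.00358 and 0.00389).

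**Figure D5:**
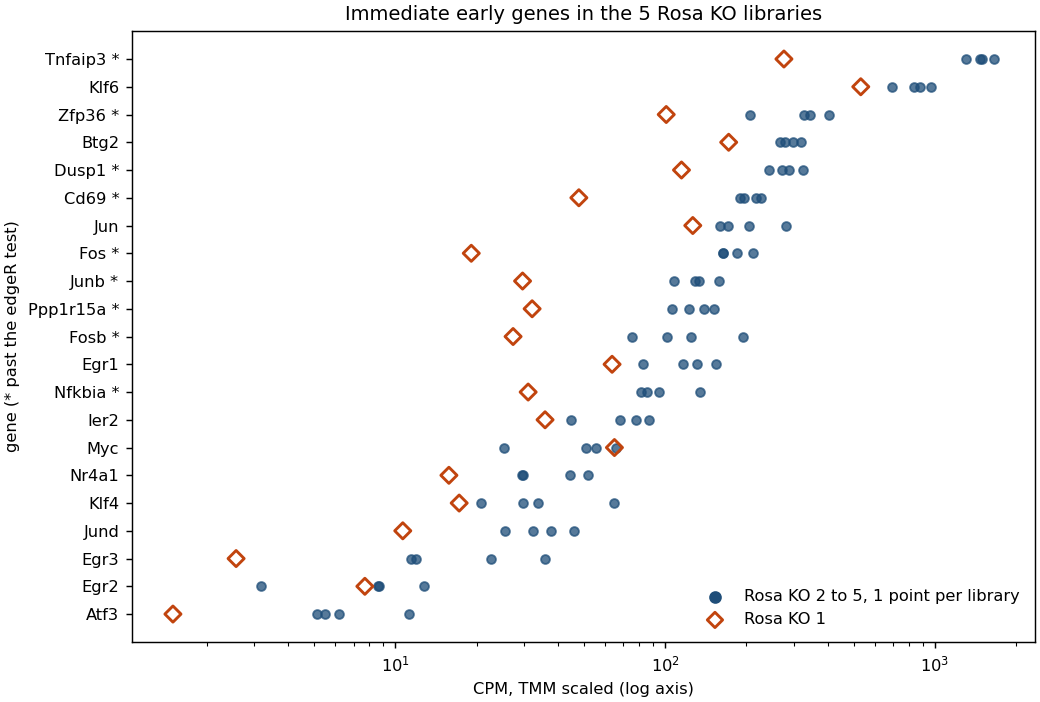
CPM (log axis) of the 21 immediate early genes in each library, with filled circles for Rosa KO 2 to 5, open diamonds for Rosa KO 1 and a star for genes past the edgeR test. The diamond lies to the left of all 4 circles for Tnfaip3, Fos, Junb, Cd69 and most other genes, and within or beside the circles for Myc and Egr2.

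The Fos promoter is shown as an example of TGACGT, a part of the cyclic AMP response motif TGACGTCA, which several of these genes hold. The Fos sequence does not hold the full motif. The sequence lies at chr12:85473640-85473889 on the plus strand (RefSeq, GRCm38.p6), with TGACGT in capitals.
Fos: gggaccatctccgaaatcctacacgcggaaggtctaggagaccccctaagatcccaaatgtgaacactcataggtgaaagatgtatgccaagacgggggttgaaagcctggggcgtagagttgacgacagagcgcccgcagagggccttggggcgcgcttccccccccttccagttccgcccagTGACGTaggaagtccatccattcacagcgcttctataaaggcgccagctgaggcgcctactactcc
On either strand TGACGT was found in 6 of 16 immediate early promoters (37.5%), those of Fos, Atf3, Btg2, Dusp1, Ppp1r15a and Tnfaip3. It was found in 6.56% of all promoters and in 11.7% of those of genes at 10 CPM or more. Of the 72 promoters from the 100 highest genes per length, 19.4% held it. The full TGACGTCA was found in 3 of the 16, those of Btg2, Dusp1 and Ppp1r15a, and in 1.62% of all promoters. All 6 genes with TGACGT lay below the range of Rosa KO 2 to 5 in Rosa KO 1. So did Junb, whose promoter held no match. TGACGT was 1 of 10 motifs searched, and a link between motif and level was not tested.

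The effector list was split rather than shifted, with 3 of 40 members higher and 7 lower in Rosa KO 1 and a median log2 fold change of −0.10. The higher members were the scaffold gene Ahnak (0.93), the intermediate filament gene Vim (0.95) and Cd44 (0.78). The lower ones were the NK-type receptor genes Klrd1 (−1.49), Klrc1 (−0.77) and Klre1 (−1.13), the interleukin 18 receptor subunit Il18rap (−1.14), the surface antigen gene Ly6c2 (−0.76), Ccl3 and Ccl4. Klrd1 had 123 CPM in Rosa KO 1 and 330, 406, 308 and 335 CPM in the others, and Il18rap had 470 CPM and 1063, 985, 952 and 1133 CPM. All 40 effector genes had a mean of 10 CPM or more in Rosa KO 2 to 5. In Rosa KO 1, 13 of them lay above the range of those libraries and 19 below it. Of all genes at that level, 26.7% lay above and 29.5% below. Of the 15 NK receptor genes 5 were lower and none higher, with a median of −0.77, the further members being Klrc2 (−1.33) and Klrb1c (−1.20). Klrc1 and Klrc2 are close paralogs whose reads may have been shared. Of the 19 granule genes tested 2 were higher, Gzmk (0.76) and the death ligand Tnfsf10 (1.15), and none lower. The calls of Cd44, Ly6c2, Klrc1, Gzmk and Tnfsf10 were each lost both without Rosa KO 4 and without Rosa KO 5, with edgeR adjusted p from 0.0551 to 0.108.

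Exhaustion genes were more often higher than lower in Rosa KO 1, with 7 of 27 higher, 3 lower and a median log2 fold change of 0.26. The higher ones were Tox (1.24 ± 0.18, SE, edgeR adjusted p = 0.000319), Tigit (1.71 ± 0.31, 0.00277), the ectonucleotidase Entpd1 (1.25 ± 0.22, 0.00236), the chemokine receptor Cxcr6 (1.02), Havcr2 (1.13), Nfatc1 (0.85) and Pdcd1 (1.07). Btla (−2.94), Ctla4 (−1.52) and the G protein regulator Rgs1 (−1.05) were lower, and Lag3 (0.82, adjusted p = 0.257) did not pass. Entpd1 had 321 CPM in Rosa KO 1 and 133.6, 152, 124.9 and 128 CPM in the others, and Btla, an inhibitory receptor that B cells also carry, had 22.3 CPM and 158, 175, 165 and 186 CPM. The direction thus differed within the list, and members on both sides did not overlap with the other 4 libraries. Of the 26 members with a mean of 10 CPM or more in those 4, 12 lay above the range of the 4 in Rosa KO 1 and 9 below it. Of all genes at that level, 26.7% lay above and 29.5% below. Pdcd1 lost its call without Rosa KO 4 or Rosa KO 5 (edgeR adjusted p = 0.0876 and 0.0906), and Ctla4 without Rosa KO 5 (0.0655). Tigit lies within the span of Zbtb20 and Cxcr6 within that of Fyco1, and the counts may not separate them.

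Transcription factors had 8 of 36 members higher in Rosa KO 1, none lower, and a median log2 fold change of 0.34. Among these were Tcf7, Tox, the calcium-responsive factor Nfatc2 (1.73, edgeR adjusted p = 0.000933), Eomes (1.15, 0.0198), Runx1 (1.08, 0.0088), Runx3 (1.14, 0.0471) and Nfkb1 (1.10, 0.0169). Eomes, a T-box factor of memory and exhausted cells, had 200 CPM in Rosa KO 1 and 92.8, 87.4, 107 and 72.5 CPM in the others. The groups did not overlap. Of the 36 factors, all with a mean of 10 CPM or more in Rosa KO 2 to 5, 18 lay above the range of those libraries in Rosa KO 1. Another 9 lay below it, where 26.7% and 29.5% of all genes at that level lay above and below. Eomes lost its call without Rosa KO 5 and Runx3 without Rosa KO 2 or Rosa KO 5 (adjusted p from 0.0548 to 0.118). Among 24 interferon response genes, 2 were higher, Oas3 (1.69) among them, and 1 lower, Mx1 (−1.70), and the remaining 21 did not pass.

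The naive and memory list had 5 of 27 tested members higher, Tcf7, Eomes, Cd27 (0.85), the chemokine receptor gene Cxcr3 (1.24) and the actin crosslinker gene Actn1 (1.77), and 2 lower, Ccr7 among them. Cxcr3 had 183 CPM in Rosa KO 1 and 72.3, 78.8, 81.3 and 78.9 CPM in the others. Of the 19 T cell lineage and receptor signalling genes, Cd3e, the epsilon chain of CD3, Cd28 (0.79) and Cd27 were higher and none lower. Cd3e had 3316 CPM in Rosa KO 1 and 1485, 1250, 1528 and 1542 CPM in the others (log2 fold change 1.19 ± 0.17, SE, edgeR adjusted p = 0.000198), while Cd3d and Cd3g, the delta and gamma chains, did not pass (0.17 and 0.13). The calls of Cd27 and Cd28 were lost without Rosa KO 4 or Rosa KO 5 (adjusted p from 0.0655 to 0.115), that of Ccr7 likewise (0.0625 and 0.0667), and that of Actn1 without Rosa KO 5 (0.0649). None of the 5 marker genes passed the edgeR test between Rosa KO 1 and the other 4, with log2 fold changes of 0.48 for Cd8a, 0.04 for Cd8b1, 0.29 for Gzma, −0.62 for Zeb2 and −0.76 for Klrg1.

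The values of 5 further genes are given without a test, since the genes were chosen after their values had been seen and no list of their kind was tallied. Among genes of RNA splicing, Rosa KO 1 had 302 CPM against 828 to 1018 CPM for the kinase gene Clk1, 35.7 against 238 to 304 CPM for Arglu1 and 920 against 1631 to 2041 CPM for Srsf5. Among genes of the actin cortex, it had 1767 CPM against 358 to 592 CPM for the myosin gene Myh9 and 1590 against 543 to 681 CPM for the filamin gene Flna.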

How the data were processed

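RNA was measured in CD8 T cells of the mouse spleen, isolated with Direct-zol and prepared with the TruSeq Stranded Total RNA kit per the labels' protocols; the labels' molecule field reads genomic DNA. The authors deposited raw counts per gene, 1 table per library, for 24594 genes. Of upstream tools, STAR 2.5.3a and DESeq2 1.26.0 appear in the submitters' processing notes, with the build mm10 and no stated roles; how reads were counted, on which annotation and strand, is not given in the sources used here, so overlapping, antisense and paralogous genes may share reads. Rn45s, which is ribosomal RNA, held 1.21 to 4.40% of each total.

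Only the 5 Rosa KO tables were used. The members and the 25 gene lists were chosen with earlier results of these data known. Identifiers matched RefSeq (GRCm38.p6) for 24570 genes, 3 rows without a symbol were kept, and 21358 genes, with 94.6 to 97.8% of the counts, had an exonic length from GENCODE M21 of the same assembly. Counts were scaled by TMM over the 5 libraries, and CPM per kb divides by the summed length of all exons. Rosa KO 1 was tested against Rosa KO 2 to 5 with edgeR 4.0.16 (R 4.3.3, quasi-likelihood F test, robust, filterByExpr with a minimum count of 10 and total of 15, 3 residual degrees of freedom). P-values were adjusted by Benjamini-Hochberg over 14254 genes, and a gene passed under 0.05. The script was tested on simulated data. DESeq2 1.42.0, other scalings, no filter, and leaving out libraries were tried as alternatives.

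Genes named are the 5 markers, the 15 highest per length, members of the lists (all of those for factors, granules, exhaustion and naive or memory cells, otherwise the 6 highest per length and those under 1 CPM), the 10 highest and 10 lowest called genes and the 10 most variable genes at a mean of 10 CPM or more; called members of the other lists, and values of members outside these, were named after they were seen. A few members of the lists are counted with their lists and not reported here by name.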

Additional observations from a re-analysis of the deposited data

Results flagged for a closer look

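Dixon's test for 1 library far from the rest (critical value 0.71 for 5 libraries) was applied to 80 levels, the sums of 25 lists and the CPM of 55 genes. It marked 27, of which 26 at Rosa KO 1. A chance rate of about 1 in 20 holds for unrelated levels chosen before the data are seen. The lists were chosen with earlier results of these data known, and list sums contain some of the single genes. The 27 marks are therefore not set against that rate. The lists marked were those of NK receptors (1347 CPM in Rosa KO 1), immediate early genes (1727), interferon response (4724, against 3326 to 3623 in the others), B cells (623), dendritic cells (1175, through the shared MHC class II genes) and red cells and platelets (747). Genes high in Rosa KO 1 were Cd3e (3316 CPM), Cd4 (28.0), Tcf7 (101), Tox (1138), Lag3 (95.3), Entpd1 (321), Hba-a1 (295), Ppbp (156) and Cxcr3 (183). Genes low in Rosa KO 1 were Ccr7 (5.57 CPM), Btla (22.3), Ifng (81.7), Ccl4 (107), Fos (19.1), Tnfaip3 (275), Cd69 (47.9), Cd79a (26.2), H2-Aa (318), Klrd1 (123) and Il18rap (470). The 1 mark at another library was B2m in Rosa KO 4, with 3496 CPM against 5378 to 6350 CPM in the other 4.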

How the results depend on the processing

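No paired analysis was possible because the libraries form a single group, so that no groups sharing replicate numbers were compared. The count of 480 genes called between Rosa KO 1 and Rosa KO 2 to 5 became 727 without the filter on low counts (362 higher, 365 lower) and 1066 by DESeq2 (379 higher, 687 lower), and lay between 341 and 612 when 1 of Rosa KO 2 to 5 was left out. With at least 3-fold in place of 2-fold, 367 genes lay above and 408 below the range of the 4 others. The biological coefficient of variation among Rosa KO 2 to 5 was 0.396, or 0.764 without the filter, which adds genes of low count. It was 0.716 in the fit of Rosa KO 1 against these 4, where 1 library could carry a gene past the filter. Of 102 called genes that the naming rule covers, 79 kept their call without each of Rosa KO 2 to 5 in turn, and none turned in direction under any alternative run. Means over Rosa KO 2 to 5 of 55 genes moved by less than 1 SD under every scaling and with each library left out, except Ifng (420 CPM with Rn45s left out of the totals). Counts of detected genes stayed between 8332 (at 5 CPM) and 10322. With 3 residual degrees of freedom and 1 library on 1 side, the comparison rests on the 4 libraries for its spread.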
